A study of Mus musculus with 4 samples.

Results

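Claudins, connexins and cadherins form the seals, channels and adhesions between neighbouring cells, and 48 of their genes were measured here out of 12393 genes in all. The members were all genes whose full symbol was Cldn and a number, Gj with a letter from a to e and a number, or Cdh and a number, with the probe set of highest mean log2 signal taken for each gene. They comprised 18 claudins, 13 connexins and 17 cadherins, represented by 68 probe sets. Gene expression was measured on 4 Affymetrix 430A oligonucleotide arrays, 1 for each group. The groups were whole testis of adult W/Wv mice, whole testis of adult XX/Sry mice, and isolated seminiferous tubules of each genotype; whole testis is called testis where it stands against tubules. W/Wv males carry mutations of Kit, a receptor kinase that germ cells need, and were bred by crossing WB with B6 mice. XX/Sry males lack a Y chromosome and develop testes from an Sry transgene. The testes of either genotype are poor in germ cells, and the study set them side by side as somatic environments for spermatogenesis. The strain of the XX/Sry males, the promoter of the transgene, the number of animals behind each sample and whether both preparations came from the same animals are facts not given in the sources used here. Tubules were freed from the tunica-stripped testis by collagenase at 5 mg/ml for 40 min at 37 °C and washed on a 70 µm strainer. With 1 array a group there is no spread between replicates, and every fold below is a ratio of 2 arrays.

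In the testis these genes are known best from the Sertoli cell, the epithelial cell of the seminiferous tubule. Claudins are 4-pass membrane proteins that seal the space between cells at tight junctions, and Cldn11 is required for the barrier that Sertoli cells build around germ cells. Connexins assemble into gap junction channels that pass ions and small molecules between cells, with Gja1 as the main Sertoli cell member. Cadherins are calcium-dependent adhesion proteins, and Cdh2 (N-cadherin) joins Sertoli cells to each other and to germ cells. Other members belong to blood vessels or to lining epithelia, so whole testis holds several sources of these transcripts.

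The arrays were first checked against their labels. The Y chromosome gene Eif2s3y had signals of 795 and 580.3 in W/Wv testis and tubules against 9.5 and 28.2 in XX/Sry, and the X inactivation RNA Xist had 131 and 76.7 against 3099 and 1002. The median signal lay between 157 and 183 on the 4 arrays. All 13 measured markers of Sertoli cells stood above background on each array, with sums of 97482 and 98512 for W/Wv and XX/Sry testis and of 131768 and 113929 in tubules. All 5 measured Leydig cell markers and 6 of 8 macrophage markers were at least 2-fold lower in tubules than in testis in both genotypes. Germ cell markers were above background for 7 of 7 genes in W/Wv testis and for 3 of 7 on each of the other arrays. Their summed signal was 4870 in W/Wv testis against 734.5 in XX/Sry testis, and 698 and 757.5 in W/Wv and XX/Sry tubules. The spermatid gene Prm1 had 1546 in W/Wv and 99.0 in XX/Sry testis. These are RNA samples of bulk tissue, in which fewer cells of a type and less RNA per cell cannot be told apart.

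Background was bounded on each array by the brightest of 27 probe sets for Bacillus genes, which have no mouse target. This bound stood at 76.3 and 63.9 for W/Wv and XX/Sry testis, and at 46.1 and 61.0 for their tubules. Of the 48 members, 15 lay above the bound on all 4 arrays (31.2%), against 65.1% of all genes, 21 lay above it on some arrays and 12 on none (25%, against 12.6% of all genes). The 15 were the claudins Cldn2, Cldn3, Cldn4, Cldn5, Cldn7, Cldn10, Cldn11 and Cldn14, the connexins Gja1 and Gjc1, and the cadherins Cdh2, Cdh5, Cdh11, Cdh15 and Cdh23. The 12 below it throughout were Cldn6, Cldn8, Cldn18, Cldn19, Gja5, Gjb1, Gjb5, Gjd2, Gjd4, Cdh8, Cdh9 and Cdh20. Where 1 of 2 signals lay under its bound, the fold is a lower limit ("at least"), taken from the brighter signal and the larger of both bounds.

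The 10 genes given in full are the markers Cldn3, Cldn11, Gja1 and Cdh2, the other members of at least median mean log2 signal (Cldn5, Gjc1 and Cdh23), and the members that differed at least 2-fold the same way in both pairs of a comparison above the bound (Cldn10, Cdh6 and Cdh13). The median of the mean log2 signals over all probe sets was 7.34; Gjc1 stood just inside it at 7.44, and Cldn7 just outside it at 7.338.

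**Figure D1:**
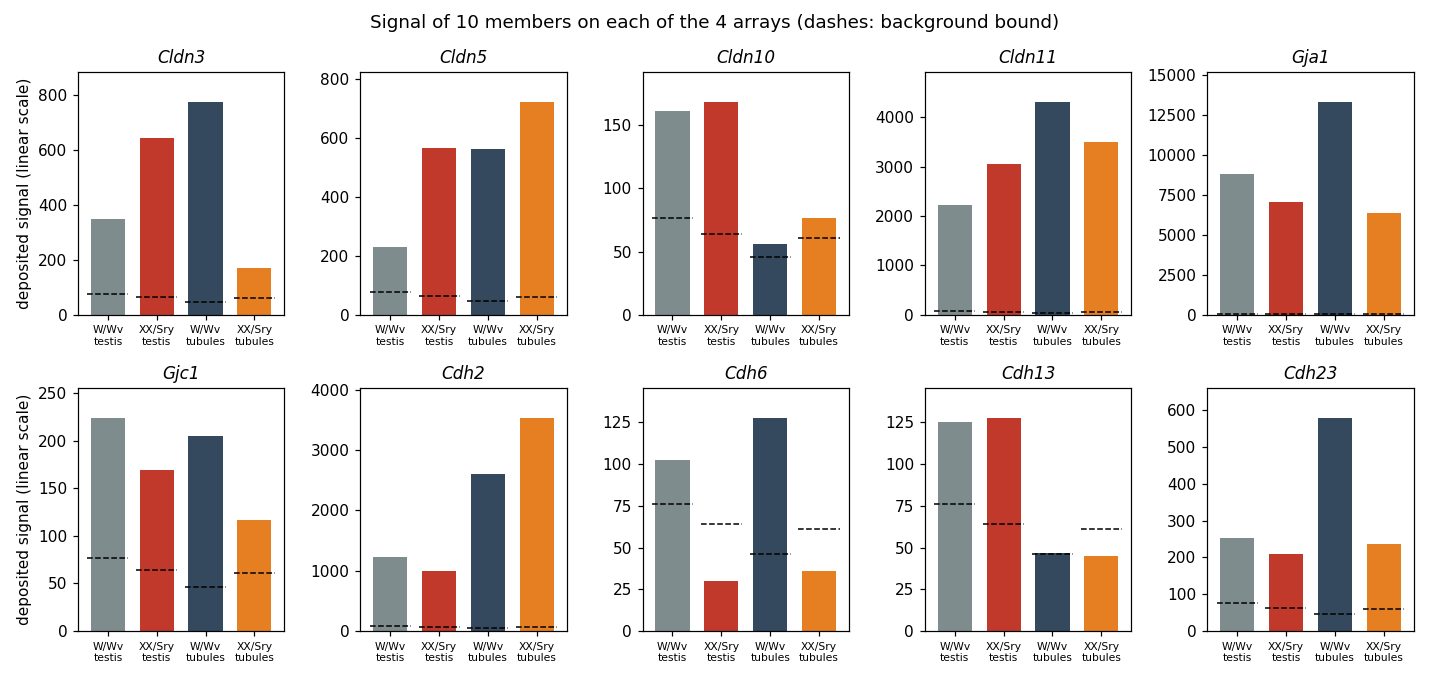
Deposited signal of 10 members (linear scale, a scale of its own for each gene) on the 4 arrays, 1 bar an array, with dashes at the background bound of that array. Cdh2 is higher on both tubule arrays than on both testis arrays, while Cldn3 is lowest in XX/Sry tubules and highest in W/Wv tubules.

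The upstream DNA of 3 claudin genes is shown, because Cldn11 is the barrier claudin of the Sertoli cell and because Cldn3 and Cldn4, neighbours on chromosome 5 with no other protein-coding gene between them in the RefSeq table, gave opposite ratios in every comparison below. The sequences are the 250 bases before each gene's start from RefSeq (build GRCm38.p6), 5′ to 3′ on the strand of the gene. Capitals mark matches, on either strand, to the GC box GGGCGG or the CCAAT box (CCAAT); the TATA box TATAAA and the androgen response half-site AGAACA were searched too. In these windows no 2 matches overlapped. The windows are chr3:31149670-31149919 on the plus strand for Cldn11, chr5:134985964-134986213 on the plus strand for Cldn3 and chr5:134946935-134947184 on the minus strand for Cldn4.
Cldn11: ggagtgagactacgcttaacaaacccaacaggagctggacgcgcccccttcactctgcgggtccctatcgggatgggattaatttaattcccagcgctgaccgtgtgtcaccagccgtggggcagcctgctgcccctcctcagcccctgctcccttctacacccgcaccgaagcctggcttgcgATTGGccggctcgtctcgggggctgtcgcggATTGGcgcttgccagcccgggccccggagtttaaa
Cldn3: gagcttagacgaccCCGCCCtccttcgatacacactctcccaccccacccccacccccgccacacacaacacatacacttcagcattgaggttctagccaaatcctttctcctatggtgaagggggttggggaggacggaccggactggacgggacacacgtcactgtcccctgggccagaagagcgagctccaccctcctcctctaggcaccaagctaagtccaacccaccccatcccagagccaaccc
Cldn4: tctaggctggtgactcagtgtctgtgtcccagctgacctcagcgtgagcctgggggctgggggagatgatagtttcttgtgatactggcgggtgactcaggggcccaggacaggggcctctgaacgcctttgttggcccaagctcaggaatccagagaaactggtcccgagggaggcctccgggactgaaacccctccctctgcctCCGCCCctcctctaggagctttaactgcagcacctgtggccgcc
The Cldn11 window held 2 CCAAT boxes and the Cldn3 and Cldn4 windows 1 GC box each, and none of the 3 held a TATAAA or AGAACA match. Promoters were listed for 33 of the 48 members (43 windows), of which 44.2% held a GC box, 30.2% a CCAAT box, 11.6% a TATA box and 16.3% the half-site. Over all 32851 promoters the shares were 32.7%, 33.8%, 12.4% and 16.1%. A match is a run of letters and not a shown binding site.

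The genotype comparison asked how the testis of XX/Sry males differed from that of W/Wv males. It is not of somatic cells alone, since germ cell markers had a higher summed signal in W/Wv than in XX/Sry testis. In the design text a gene is different where the ratio reaches 2-fold in each of the preparations. By that rule 0 of 48 members were higher in XX/Sry, against 1.98% of all 12393 genes, and 3 were lower (6.25% of the members, against 3.22% of all genes). The 3 were Cdh4, Cdh6 and Cldn8. When folds were bounded by background, 0 members were higher (0.734% of all genes) and 0 lower (0.436% of all genes). The median log2 ratio of the members was -0.31 in testis and -0.12 in tubules, against -0.10 and -0.003 over all genes. A model with genotype and preparation as additive terms, fitted to all 22626 probe sets with limma (two-sided, Benjamini-Hochberg adjustment), called 0 members in either direction at an adjusted p under 0.05, against 0.11% of probe sets called higher and 0.0398% lower. At an unadjusted p under 0.05 it gave 3 members higher (Cldn5, Cldn23 and Gja4) and 2 lower (Gja1 and Cdh6), beside 3.93% and 4.8% of probe sets, and the lowest adjusted p of a member was 0.492, that of Cldn23. The fit has 1 residual degree of freedom and counts any difference in the genotype ratio between preparations as error.

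**Figure D2:**
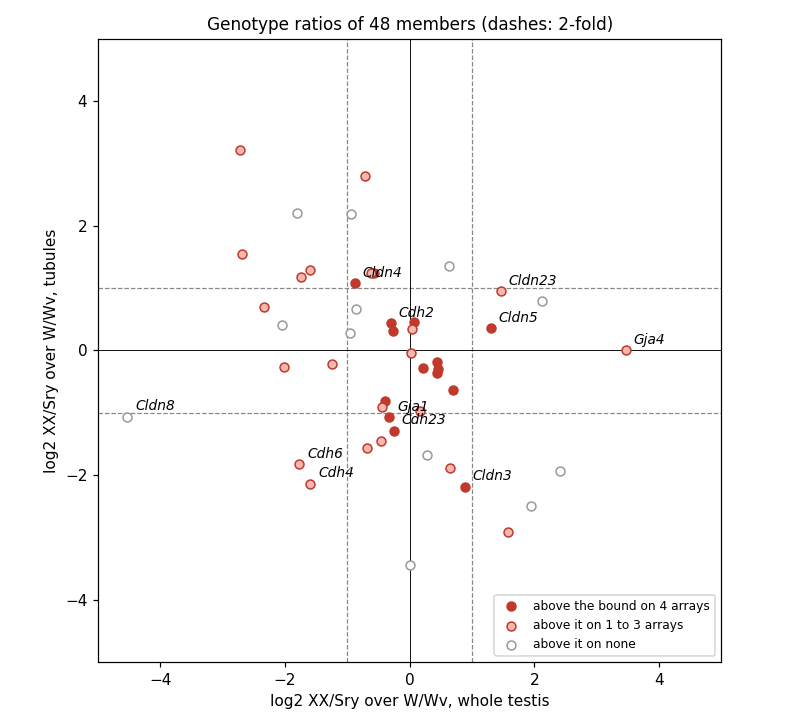
Log2 ratio of XX/Sry over W/Wv in testis (x axis) and in tubules (y axis) for the 48 members, with fill by the number of arrays above the background bound and dashes at 2-fold. Of the 3 points past 2-fold in the lower left, Cdh4 was above the bound on 1 array, Cdh6 on 2 and Cldn8 on none.

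Among the claudins that seal tight junctions, Cldn11 showed no 2-fold difference between genotypes. The testis signals were 2228 (W/Wv) and 3055 (XX/Sry), and the tubule signals 4313 and 3506. XX/Sry was 1.37-fold higher in testis and 1.23-fold lower in tubules. The direction in tubules turned after scaling to the spike controls, which gave log2 ratios of 0.55 in testis and 0.33 in tubules against 0.46 and -0.30. The fitted genotype difference was 0.08 ± 0.27 on the log2 scale (SE).

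Cldn3, a Sertoli cell claudin known to depend on androgen, had the widest spread of the named claudins. W/Wv gave signals of 351 in testis and 777 in tubules, while XX/Sry gave 646 and 171. XX/Sry was 1.84-fold higher in testis but 4.55-fold lower in tubules. All 4 probe sets of the gene gave these directions, with log2 ratios between 0.83 and 1.24 in testis and between -2.94 and -0.60 in tubules. The set at -2.94 had a signal of 23.1 in XX/Sry tubules, under the bound of 61.0. Sets at -0.60 and -0.62 were no further from 0 than the median spike control between the tubule arrays, at -0.66. After scaling to the spikes, the tubule ratio of the probe set used was -1.56 against -2.19. The 4 sets target the same transcript and share each array, so they do not replicate the sample. Cldn4, on the neighbouring locus, is singled out after its values were seen; it is best known from kidney and gut epithelium. Its signals were 150 and 81.2 in W/Wv and XX/Sry testis and 83.5 and 177 in tubules, with XX/Sry 1.84-fold lower in testis and 2.12-fold higher in tubules. Of all genes, 0.847% ran opposite ways by at least 1.5-fold above background in all 4 pairs, as Cldn3 and Cldn4 did among the 48 members; the difference between preparations has no test with single arrays.

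Epcam, the epithelial adhesion molecule, had its highest signal in XX/Sry tubules, as Cldn4 did. The summed signal of the other epithelial markers was lowest there, but most of them lay below the bound on that array. Of 8 measured markers of epididymis, efferent duct and rete epithelium, between 2 and 4 lay above the bound on each array, and Lcn5, Cftr and Muc1 were below it on all 4. Their summed signal was 683 and 564 in W/Wv and XX/Sry testis and 575 and 1016 in tubules, of which Epcam made 252, 188, 253 and 783. Without Epcam the other 7 summed to 431 and 376 in testis and to 321 and 234 in tubules. In XX/Sry tubules all of these but Krt19 lay below the bound, so that sum is mostly background. Krt19 had 93.3 and 49.6 in W/Wv and XX/Sry testis and 5.6 and 64.1 in tubules. The part of these markers in the Cldn4 and Cldn3 values was not tested.

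Cldn5, a claudin of the endothelial barrier that Sertoli cells also make, was lowest in W/Wv testis. Its signal was 229 there and 562 in the tubules of that genotype, against 565 and 722 for XX/Sry. XX/Sry was 2.46-fold higher in testis and 1.28-fold higher in tubules, so the rule was met in testis alone. The fitted difference was 0.83 ± 0.32 (SE), with an adjusted p of 0.492 in limma; under the other scalings and the added constant that p lay between 0.274 and 0.523. Outside the named set, the vessel members Gja4 and Cdh5 were also higher in XX/Sry testis and are singled out after their values were seen. Not all vessel members were: Gjc1 was lower there and Cdh13 near level, with log2 ratios of -0.40 and 0.03. Gja4 (connexin 37, a gap junction protein of arterial endothelium) had 14.0 in W/Wv testis, under the bound, against 155 in XX/Sry testis, and 199.9 (W/Wv) and 200.3 (XX/Sry) for tubules. It was thus at least 2.03-fold higher in XX/Sry testis and nearly level between the tubule samples. Cdh5 (VE-cadherin), the adhesion protein of all endothelium, had 137 and 224 in W/Wv and XX/Sry testis and 176 and 114 in tubules, 1.63-fold higher and 1.55-fold lower. The 9 endothelial markers, which hold no member, had summed signals of 1029 and 1559.6 in W/Wv and XX/Sry testis and of 1665 and 1962 in tubules, with 6, 7, 8 and 8 of 9 above the bound and Tie1 below it on every array. Of these 9 markers, 6 were higher in XX/Sry than in W/Wv testis, while Pecam1 (below the bound on both arrays), Kdr and Tek were lower. Their part in the Cldn5 and Gja4 values was not tested.

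Against the bound, 3 members were at least 2-fold higher in XX/Sry testis (Cldn5, Cldn23 and Gja4, beside 2.95% of all genes) and 0 lower (3.61% of all genes). In tubules 2 were higher (Cldn2 and Cldn4, beside 3.96%) and 4 lower (Cldn3, Gja1, Cdh6 and Cdh23, beside 2.74%). Cldn23, a claudin of lining epithelia, was named after its values were seen because it came closest to the rule. Its signals were 69.9 and 192 in W/Wv and XX/Sry testis and 154 and 297 in tubules, at least 2.52-fold and 1.93-fold higher in XX/Sry. Cldn2, a claudin that forms cation pores, had 111 and 74.3 in testis and 47.5 and 112 in tubules, 1.49-fold lower and 2.36-fold higher in XX/Sry. The W/Wv tubule signal of Cldn2 stood barely above its bound of 46.1.

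Among the connexins, Gja1 (connexin 43) differed mainly in tubules. The probe set used is of the x_at kind, some of whose probes can match other transcripts. W/Wv had 8807 in testis and 13304 in tubules, XX/Sry 7019 and 6344.5. XX/Sry was 1.25-fold lower in testis and 2.10-fold lower in tubules. All 6 probe sets were lower in XX/Sry tubules, with log2 ratios from -1.09 to -0.50, and 2 of them by 2-fold; in testis 4 were lower and 2 higher, from -0.90 to 1.17. The mean of the 6 gave -0.86 in tubules. The 18 spike controls added before hybridisation were also lower on the XX/Sry than on the W/Wv tubule array, with a median log2 ratio of -0.66, while the median over all probe sets was -0.02. After scaling to the spikes, the Gja1 ratio in tubules was -0.44.

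Gjc1 (connexin 45), found in vessels and smooth muscle, had signals of 224 and 169 in W/Wv and XX/Sry testis and of 205 and 117 in tubules. XX/Sry was 1.32-fold and 1.75-fold lower, in both preparations under 2-fold. Gjb2 (connexin 26) lay above the bound on 3 arrays, with 148 and 89.9 in testis and 10.1 and 70.3 in tubules, the value of 10.1 being W/Wv tubules. The remaining 9 connexins lay above it on 1 array at most (Gja3, Gja10, Gjb6 and Gjc3) or on none (Gja5, Gjb1, Gjb5, Gjd2 and Gjd4), with no signal above 89.6.

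Among the cadherins, Cdh2 showed no 2-fold difference between genotypes. W/Wv had 1232 in testis and 2606 in tubules and XX/Sry 999 and 3533, 1.23-fold lower and 1.36-fold higher in XX/Sry. The other probe set of the gene was lower in XX/Sry tubules, with a log2 ratio of -1.0 against 0.44, so the 2 sets gave opposite directions in tubules; their mean was -0.28, and after spike scaling the first gave 1.06.

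Cdh6, a type II classical cadherin known from kidney and neural crest, was the 1 of the 3 lower members above the bound on both W/Wv arrays. It had 102 in W/Wv testis and 128 in W/Wv tubules, against 30.0 and 36.0 in XX/Sry, both below background. The XX/Sry signal was lower by at least 1.34-fold in testis and at least 2.09-fold in tubules, and a difference of 2-fold in testis is not established. The fitted difference was -1.80 ± 0.71 (SE, adjusted p of 0.501 in limma). Cdh4 (R-cadherin) had W/Wv signals of 65.4 and 81.8 and XX/Sry signals of 21.7 and 18.6, above the bound in W/Wv tubules alone. Cldn8, the third, had signals of at most 50.9, all below background.

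Cdh23, known as a tip-link cadherin of the inner ear, had 252 and 211 in W/Wv and XX/Sry testis and 579 and 237 in tubules. It was 1.20-fold and 2.44-fold lower in XX/Sry. The W/Wv tubule array alone was high. A further probe set of the gene ran the opposite way in tubules, with 16.8 in W/Wv and 116 in XX/Sry, so that the mean of the sets gave a log2 ratio of 0.75 there against -1.29. After spike scaling it was -0.66. Cdh13 (T-cadherin), an anchored adhesion protein of vessels and smooth muscle, had near-equal testis signals of 125 (W/Wv) and 128 (XX/Sry); the mean of its 3 probe sets gave a log2 ratio of -1.17 there.

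**Figure D3:**
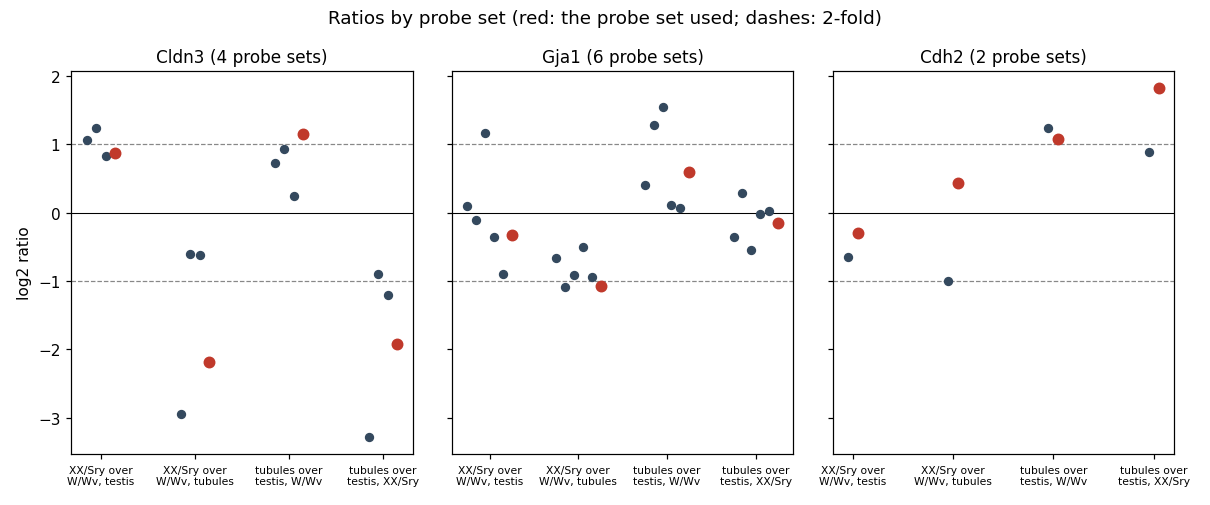
Log2 ratios of each probe set of Cldn3, Gja1 and Cdh2 in the 4 pairs, with the probe set used in red and dashes at 2-fold. The 4 Cldn3 sets lie above 0 in testis and below 0 in tubules for genotype, and the 6 Gja1 sets all lie below 0 in tubules.

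Tubules were then compared with testis of their own genotype. The summed Leydig and macrophage signals were lower in tubules of either genotype, yet all of these markers stayed above background there. Endothelial markers had a higher summed signal in tubules. RNA of Leydig cells and macrophages was thus depleted in part and not removed, while the endothelial sum was not lower. The W/Wv pair differed in germ cell markers too, with a summed signal of 698 in tubules against 4870 in testis. In XX/Sry these sums were 757.5 and 734.5. The part of germ cells in the W/Wv ratios below was not tested. Collagenase digestion is given for the tubule samples alone, and its effect was not tested separately from that of tissue loss. At 2-fold or more in both genotypes 1 of 48 members was higher in tubules (2.08%, against 1.32% of all genes) and 2 were lower (4.17%, against 5.74% of all genes). The higher one was Cdh2 and the lower ones were Cldn10 and Cdh13. Against the bound Cdh2 (0.452% of all genes higher) and Cldn10 (2.23% lower) met the rule. The median log2 ratio of the members was -0.22 in W/Wv and -0.04 in XX/Sry, against -0.15 and -0.02 over all genes. The limma fit called 1 member higher at an adjusted p under 0.05, Cdh2, and 0 lower, against 0.239% and 0.977% of probe sets; at an unadjusted p under 0.05 there were 3 higher (Cdh2, Cldn5 and Gja4) and 3 lower (Cdh13, Cldn10 and Gjb2), beside 5.69% and 8.24%.

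**Figure D4:**
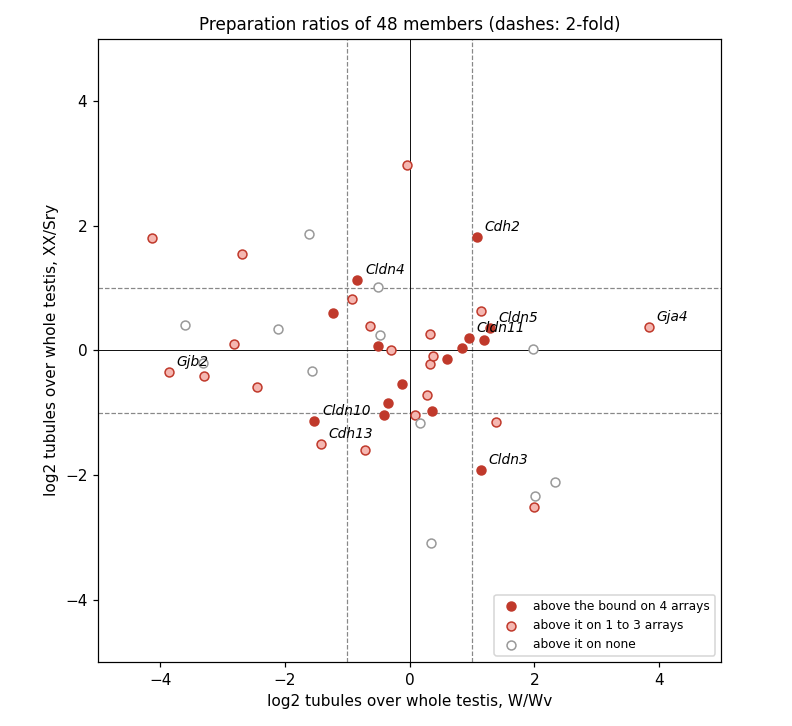
Log2 ratio of tubules over testis in W/Wv (x axis) and in XX/Sry (y axis) for the 48 members, filled by the number of arrays above the background bound, with dashes at 2-fold. Cdh2 is alone in the upper right corner, and Cdh13 and Cldn10 stand in the lower left.

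Cdh2 was 2.12-fold higher in W/Wv tubules and 3.53-fold higher in XX/Sry tubules than in testis. The fitted difference was 1.45 ± 0.26 (SE) with an adjusted p of 0.0256 in limma, higher in 2 of 2 genotypes. That fit is of the probe set used. The second probe set of the gene gave log2 ratios of 1.24 (W/Wv) and 0.88 (XX/Sry), against 1.08 and 1.82. By the second set 2-fold was reached in W/Wv alone, while the mean of both sets gave 1.16 and 1.35. Under median centring, quantile normalisation and an added constant the adjusted p lay between 0.0181 and 0.0357. After scaling to the spike controls, whose median log2 ratio of W/Wv tubules over testis was 0.56, the W/Wv ratio was 0.53 and the adjusted p 0.111. For the Sertoli markers the median log2 ratio was 0.50 (W/Wv) and 0.18 (XX/Sry), with 0 of 13 past 2-fold in both genotypes.

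The other Sertoli cell members did not reach 2-fold in both genotypes. Cldn11 was 1.94-fold higher in W/Wv tubules and 1.15-fold higher in XX/Sry tubules; the W/Wv log2 ratio of 0.95 became 1.17 after median centring. Gja1 was 1.51-fold higher in W/Wv tubules and 1.11-fold lower in XX/Sry tubules. All 6 Gja1 probe sets were higher in W/Wv tubules, while 2 of 6 were higher in XX/Sry tubules. Cldn3 was 2.21-fold higher in W/Wv tubules and 3.78-fold lower in XX/Sry tubules, with its 4 probe sets above 0 in W/Wv and below 0 in XX/Sry. The W/Wv log2 ratio of Cldn3 was 1.15, but 0.77 as the mean of the probe sets and 0.60 after spike scaling. By the probe sets used, Gja1 and Cldn3 had their highest signals in W/Wv tubules and their lowest in XX/Sry tubules. Other probe sets differed. Some Gja1 sets were lowest in W/Wv testis (1262) or in XX/Sry testis (867 and 212.5), and the other Cldn3 sets were highest in XX/Sry testis (384, 336 and 224).

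Cldn10, which forms ion-selective pores, was above the bound on each array and lower in both tubule samples. Its signals were 162 and 169 in W/Wv and XX/Sry testis and 56.0 and 77.0 in tubules, 2.88-fold and 2.19-fold lower. Its probe set is of the s_at kind, whose probes match several transcripts. Cdh13 had 125 and 128 in testis and 46.7 and 45.2 in tubules, 2.68-fold and at least 1.998-fold lower, and 2 further probe sets, mostly below the bound, were lower too. With a constant of 50 added, the log2 ratio in XX/Sry was -0.78 for Cldn10 and -0.90 for Cdh13, under 2-fold. The XX/Sry ratio of Cldn10 was -0.94 after quantile normalisation, and that of Cdh13 -0.79 as the mean of its probe sets. The fitted differences were -1.33 ± 0.56 for Cldn10 and -1.46 ± 0.65 for Cdh13 (SE), with adjusted p of 0.323 and 0.349 in limma. The 5 Leydig markers had summed signals of 36461 and 57785 in W/Wv and XX/Sry testis and of 9134 and 21820.4 in tubules, and the 8 macrophage markers 9913 and 13716 in testis and 4248 and 3386 in tubules. Their part in these values was not tested. The summed signal of endothelial markers was higher in tubules in both genotypes, as was that of 7 smooth muscle and myoid markers, at 14241.5 and 17723 in testis and 22589 and 19879.5 in tubules.

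Members of vessels did not follow one direction. Cldn5 was 2.45-fold higher in W/Wv tubules and 1.28-fold higher in XX/Sry tubules, Gja4 at least 2.62-fold and 1.29-fold higher. After spike scaling the W/Wv log2 ratio of Cldn5 was 0.75. Cdh5 was 1.28-fold higher in W/Wv tubules and 1.97-fold lower in XX/Sry tubules. Cdh11, a type II cadherin of mesenchymal cells, had 117 and 160 (W/Wv and XX/Sry) in testis and 88.1 and 77.4 in tubules, 1.33-fold and 2.06-fold lower. Gjc1 was 1.09-fold and 1.45-fold lower, but its W/Wv log2 ratio of -0.13 became 0.09 after median centring, and Cdh23 2.30-fold and 1.13-fold higher. Against the bound, 6 members were 2-fold higher in W/Wv tubules (Cldn3, Cldn5, Cldn23, Gja4, Cdh2 and Cdh23, beside 3.24% of all genes) and 3 lower (Cldn2, Cldn10 and Cdh13, beside 7.58%). In XX/Sry 2 were higher (Cldn4 and Cdh2, beside 3.28%) and 3 lower (Cldn3, Cldn10 and Cdh11, beside 5.87%). Both comparisons use the same 4 arrays, so the members named in one are not independent of those named in the other.

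The remaining members above the bound on 3 or 4 arrays had these ranges over the arrays. Cldn7 and Cldn14, claudins of lining epithelia and the inner ear, had signals from 119 to 214 and from 70.7 to 101, and Cdh15 (M-cadherin of muscle) from 82.4 to 148. Cdh22, a type II cadherin, ranged from 61.3 to 77.8. Cldn1, a sealing claudin of epidermis, had 109.6 in W/Wv testis and 22.5 in XX/Sry tubules, its highest and lowest signals. Cldn15, a pore-forming claudin of the gut, ranged from 56.7 in XX/Sry tubules to 116 in XX/Sry testis. Cdh1 (E-cadherin), the adhesion protein of epithelia, ranged from 44.0 in XX/Sry to 121 in W/Wv tubules. Cldn9, Cldn13, Cldn16, Cdh3, Cdh10, Cdh16 and Cdh17 passed the bound on 1 or 2 arrays, with no signal over 114. The 10 neighbouring pairs of members included Cdh11 and Cdh5 on chromosome 8 as well as the opposed Cldn3 and Cldn4. In these 2 pairs, unlike the other 8, both genes lay above the bound on all 4 arrays. For Cdh11 and Cdh5 the log2 ratios of XX/Sry over W/Wv were 0.45 and 0.70 in testis and -0.19 and -0.63 in tubules. Those of tubules over testis were -0.41 and 0.36 in W/Wv, opposite ways, and -1.04 and -0.98 in XX/Sry.

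Partner genes of these junctions were taken as a list of 49 scaffold, tight junction, adherens junction and desmosome genes, of which 43 were measured. In the genotype comparison 1 was higher in XX/Sry (Nectin1, an adhesion receptor of adherens junctions), 1 lower (Marveld2, or tricellulin, of 3-cell tight junctions) and 41 neither. In the preparation comparison 0 were higher in tubules and 2 lower (Nectin3, a Nectin1 partner, and Panx1, which forms membrane channels related to connexins). Over all genes the shares were 1.98% higher and 3.22% lower for genotype, and 1.32% higher and 5.74% lower for preparation. The median log2 ratios of the partners were -0.23 and -0.06 for genotype in testis and tubules, against -0.10 and -0.003 over all genes. For preparation they were 0.17 and 0.36 in W/Wv and XX/Sry, against -0.15 and -0.02. Nectin1 had 18.3 and 94.9 in W/Wv and XX/Sry testis and 30.1 and 69.5 in tubules, while Marveld2 had 118 and 66.4 in W/Wv testis and tubules and was below the bound in XX/Sry. Panx1 had 188 and 156 in testis and 78.6 and 49.5 in tubules. It was the 1 partner that kept 2-fold in both genotypes against the bound, beside 2.23% of all genes lower by that rule.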

How the data were processed

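The authors deposited array intensity values, MAS5 signals on a linear scale per the submitters' processing notes; the design text names Microarray Suite. A trimmed mean (2% off each end) of 500.2 on every array shows scaling by the authors; detection calls are not used here. Each array was hybridised for 16 hours with 1 sample. After 64 control probe sets were set aside, 22626 remained; the platform annotation gave 1 gene symbol to 20380, several to 691 and none to 1555, and RefSeq identifiers changed 0 symbols. The number of arrays limits precision. Genes took the probe set of highest mean log2 signal. Folds are ratios of deposited signals; the rule is 2-fold the same way in both pairs. The additive fit used limma 3.58.1 in R 4.3.3 with an intensity trend (prior and residual degrees of freedom 9.98 and 1) and was tested on simulated data. It treats arrays as independent and holds no spread between animals if preparations share them.

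The members, gene lists and tests were chosen with earlier results of these data known, the additive fit among them. Genes given in full were the 4 markers, members of at least median mean log2 signal, and members 2-fold in both pairs of a comparison with each brighter array above its bound; partner genes were named by the last criterion, and any other gene is said to be chosen after its values were seen or falls in a count. Alternatives were median centring, quantile normalisation, a constant of 50 added before log2, the mean of all probe sets, thresholds of 1.5-fold and 3-fold, brightness filters, and, added after seeing the data, scaling to 18 spike controls. Protein sequences were not used here.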

Additional observations from a re-analysis of the deposited data

Results flagged for a closer look

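Cldn3 and Cldn4 stand out because their ratios ran opposite ways in the groups compared, by at least 1.5-fold above background in all 4 pairs; the difference was not tested, since each group has 1 array. For Cldn3 the log2 ratio of XX/Sry over W/Wv was 0.88 in whole testis and -2.19 in tubules, and that of tubules over whole testis was 1.15 in W/Wv and -1.92 in XX/Sry. For Cldn4 the values were -0.88 and 1.08 for genotype, and -0.84 and 1.12 for preparation. The genotype and preparation values of a gene come from the same 4 signals and are a single contrast seen from either side. Of all 12393 genes, 105 met the same condition.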

How the results depend on the processing

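Each count was taken under 10 alternatives, and 23 of 40 alternative counts stayed within 1.5 times the main one. Members higher in XX/Sry (0) became 1 after quantile normalisation (Cdh8), 2 after spike scaling and 3 at 1.5-fold. Members lower in XX/Sry (3) became 0 with a constant of 50, under a filter on signals at the array median, with bounded folds and in the limma fit. Members higher in tubules (1) became 0 after spike scaling and at 3-fold, and 2 at 1.5-fold. Members lower in tubules (2) became 1 after quantile normalisation, with probe sets averaged and with bounded folds, and 0 with a constant of 50, at 3-fold, under a filter on signals at the array median and in the limma fit. Of 180 alternative log2 ratios of the 10 named genes, 158 stayed on their side of 2-fold, 15 fell under 2-fold and 4 passed it in the same direction. The sign turned in 10 of the 180, of which 7 were under 2-fold before and after. The other 3 came with the mean of all probe sets: for Cdh23, whose 2 probe sets disagree, 0.75 for XX/Sry over W/Wv in tubules and -0.26 for W/Wv tubules over whole testis, and for Cdh13 -1.17 for XX/Sry over W/Wv in whole testis, against 0.03. Other causes were not tested. Spike scaling moved the median log2 ratio over all probe sets by 0.63 in the tubule genotype ratio and by -0.55 in the W/Wv preparation ratio, and median centring moved the latter by 0.22. Most members lie near background, which limits their folds to bounds. No paired analysis was possible because each group holds 1 array and no labels number replicates.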
